A study of Homo sapiens with 6 samples.

Results

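The genes described here encode the subunits of the integrins and the chains of the laminins. Every gene of the deposited count table that encodes an integrin alpha or beta subunit or a laminin alpha, beta or gamma chain was taken, without regard to its values. This gave 38 of the 60664 genes, namely 26 integrin subunits and 12 laminin chains. RNA was sequenced from SiHa, an established human cervical carcinoma cell line, in 2 groups of 3 libraries. The control group was SiHa PR, the parental cells of a lymph node metastatic line that was established in earlier work. The other group was SiHa PR P4HA3, the same parental cells made to overexpress P4HA3 from a complementary DNA in a lentiviral vector. P4HA3 is a catalytic subunit of prolyl 4-hydroxylase, the enzyme that hydroxylates proline in procollagen. The comparison asks which transcripts differ when P4HA3 is raised. The labels give the control only as SiHa PR and do not say whether it carried an empty vector, nor whether the overexpressing cells were 1 clone or a pool. Nothing in the labels says whether the libraries of a group came from separate cultures, so p-values measure the spread between these libraries, which may be technical.

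Integrins are cell surface receptors made of 1 alpha and 1 beta subunit. They bind matrix proteins outside the cell and connect to actin, or for ITGA6 with ITGB4 to keratin filaments, inside it. Laminins are the main glycoproteins of basement membranes, each made of 1 alpha, 1 beta and 1 gamma chain. Epithelial cells rest on laminins through ITGA6, ITGA3, ITGB1 and ITGB4, and attach to fibronectin mainly through ITGA5 with ITGB1 and through ITGAV with several beta subunits.

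Libraries held 21773488 to 24939948 counts, of which the 38 genes took 0.316 to 0.358%. P4HA3 itself was counted 86, 62 and 93 times in the control libraries and 45042, 44775 and 49097 times in the overexpressing ones. Its log2 fold change was 9.15 (SE 0.101, adjusted p = 3.19e-12), from 3.41 ± 0.457 to 1954 ± 32.6 CPM (counts scaled to normalised library size; SD, n = 3). The libraries differed in how their values followed the GC content of transcripts, also within a group. Spearman's rho between GC content and a library's deviation from its group mean, across all tested genes, was 0.23, 0.40 and -0.54 in control replicates 1 to 3 and 0.47, -0.50 and 0.08 in P4HA3 replicates 1 to 3. Across all tested genes the log2 fold change between groups also followed GC content, with a rho of -0.58. A second fit was therefore made and is given beside the results, from which the smooth trend of each library on GC content and on the length of transcripts was taken out. Whatever part of a group difference runs along GC content or length is lost in this corrected fit, a biological part included.

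The growth text in the labels speaks of uterine smooth muscle, while the cell line field names SiHa. All 10 cervical epithelial carcinoma markers were above 3 counts in at least 1 library, and their summed level was 7785 to 8956 CPM in the control and 6573 to 7679 CPM in the overexpressing libraries. Nearly all of that sum was KRT17, KRT8, KRT18 and CDKN2A, while KRT5 had 3 or 4 counts and TP63 3 to 13 counts a library, and KRT14 and KRT19 averaged 0.841 to 1.35 CPM in either group. CDH1 (-0.77, adjusted p = 0.00114), KRT18 (-0.40), KRT17 (-0.32) and CDKN2A (-0.27) were themselves called lower in the overexpressing cells, and their part in the results below was not tested. Smooth muscle markers summed to 95.1 to 105 and 94.2 to 112 CPM, most of it SMTN. DES, MYH11 and CNN1 had at most 9 counts in any library, while ACTA2 had 161 to 204. ACTG2 had 0, 1 and 30 counts in the control and 40, 1 and 44 counts in the overexpressing libraries. Platelet markers were at 3 counts or fewer in every library, as were PTPRC and 3 of the 5 other leukocyte markers. The leukocyte sum of 91.4 to 109.9 CPM in the control and 35.2 to 51.1 CPM in the overexpressing libraries was almost all CD14. Of the 4 endothelial markers only PECAM1 was above 3 counts, at 66, 73 and 62 counts in the control and 33, 30 and 37 counts in the overexpressing libraries (log2 fold change -1.03, adjusted p = 0.00494). Fibroblast markers summed to 184 to 194 and 144 to 185 CPM, and their part in the results below was not tested. In bulk RNA, fewer cells of a type and less RNA per cell cannot be told apart.

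Of the 38 genes, 29 had more than 3 counts in at least 1 library and 28 passed the filter on low counts, 17 of them integrins and 11 laminins. ITGA4, ITGA8, ITGA9, ITGAD, ITGAL, ITGAM, ITGAX, ITGB6 and LAMB4 had 3 counts or fewer in every library and were not detected at this depth. ITGA2B, the platelet partner of ITGB3, had 3 to 13 counts a library and was not tested. Levels of different genes were compared per kilobase of the canonical transcript (CPM per kb). On that scale, ITGB1, the beta subunit shared by most matrix-binding integrins, was the most abundant member, at 131 in the control and 152 in the overexpressing cells. ITGA3, a laminin-binding alpha subunit, followed at 98.4 and 82.1. Next came ITGB5, an ITGAV partner, at 75.1 and 68.3. The fibronectin receptor subunit ITGA5 stood at 60.1 and 37.9 CPM per kb.

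Among laminin chains the per-length order in the control was LAMB2 at 58.2, LAMC1 at 50.8, LAMB3 at 46.8 and LAMA5 at 45.9 CPM per kb. In the overexpressing cells LAMC1 came first at 55.7, ahead of LAMB2 at 44.3, LAMB3 at 39.0 and LAMA5 at 39.0. LAMA5 made up 94.2% ± 0.502 (SD, n = 3) of the summed laminin alpha chains in the control and 93.0% ± 0.137 in the overexpressing cells, and 93.6% and 93.7% on corrected values. LAMA1 and LAMA2, the alpha chains of embryonic and of muscle basement membranes, were at 1.33 CPM or less in every library. A pair of subunits stood without their usual partners. ITGB2, the leukocyte beta subunit, was at 17.3 ± 0.875 CPM in the control although ITGAL, ITGAM, ITGAX and ITGAD, the alpha subunits it pairs with, were not detected. ITGAE, whose known partner is ITGB7, was at 44.2 ± 4.19 CPM beside 0.465 ± 0.118 CPM of ITGB7. Exons of HASPIN on the opposite strand cover 427 of ITGAE's 6602 exonic bases, and the strand setting of the counting is not given in the sources used here.

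Of the 28 genes tested, 9 were lower in the P4HA3-overexpressing cells at an adjusted p under 0.05 and 0 were higher. They were the integrin subunits ITGB3, ITGA7, ITGA5, ITGB4 and ITGA3 and the laminin chains LAMB2, LAMC3, LAMB3 and LAMA5. Lower calls were 32.1% of the genes tested, against 11.4% of all 15130 genes tested, of which 9.36% were called higher and 20.8% in either direction. At an unadjusted p under 0.05 there were 15 of the 28, against 38.7% of all genes, 3 of them with a positive log2 fold change (ITGA6, ITGAV and ITGB1). DESeq2 called 2 of 24 integrins higher, and 1498 of 27552 genes. The groups did not overlap, with every overexpressing library lower, for 13 of the 28, against 20.4% of all genes. For 0 of the 28 did they fail to overlap in the higher direction, against 19.7% of all genes. The median log2 fold change was -0.16 over the 28 and 0.0055 over all genes.

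In the corrected fit 9 of the 28 were again called lower and 0 higher, where 9.32% of all genes were called lower and 9.23% higher. ITGB3, ITGA7, ITGA5, ITGB4, LAMB2 and LAMC3 were called in both fits. ITGA3, LAMB3 and LAMA5 were called only without the correction, and ITGA1, ITGA2 and ITGA11 only with it. The median over the 28 was -0.090 after correction. ITGB3, ITGA7, ITGA5, ITGB4 and LAMB2 were also called in each of the 6 fits that left out 1 library.

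**Figure D1:**
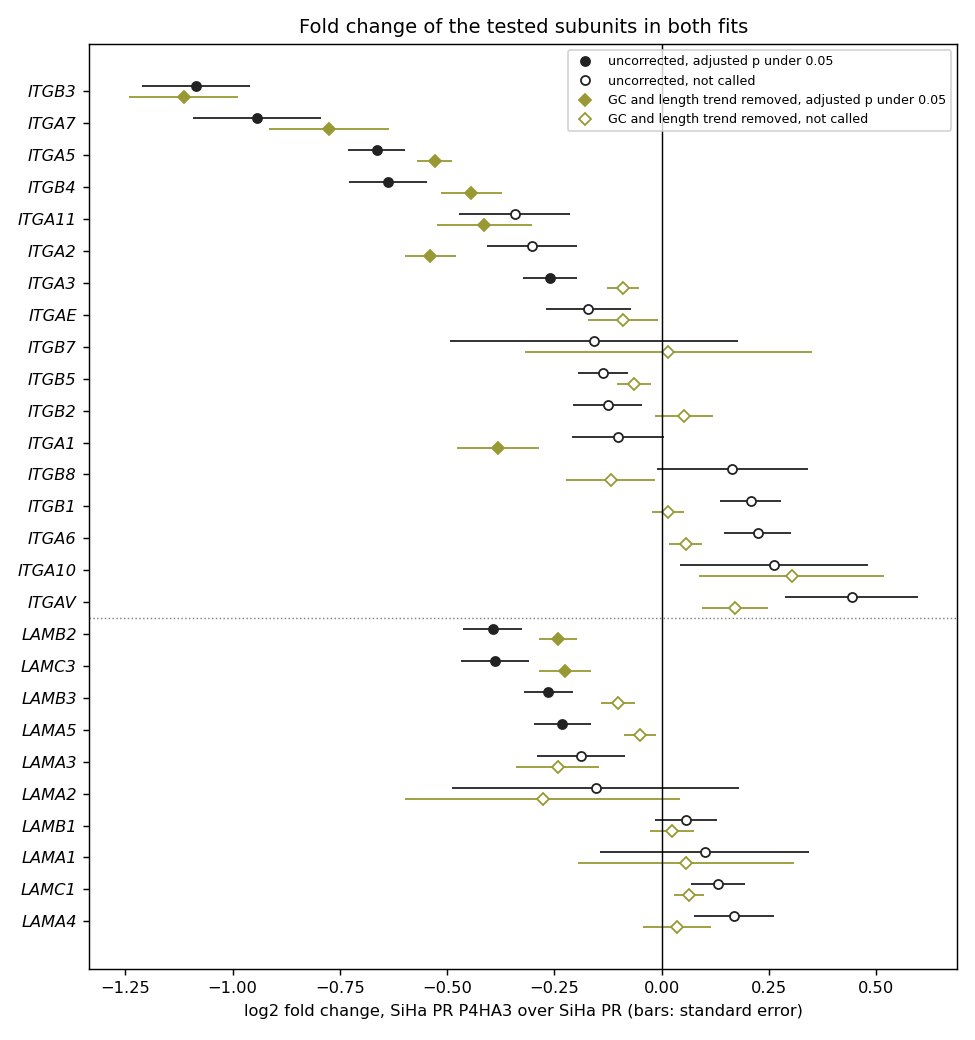
Log2 fold change (P4HA3-overexpressing minus control) of 27 of the 28 tested genes with its standard error, without (circles) and with (diamonds) the GC content and length correction, filled where the adjusted p is under 0.05. Genes called lower in both fits are ITGB3, ITGA7, ITGA5, ITGB4, LAMB2 and LAMC3.

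Among alpha subunits, ITGA5, ITGA7 and ITGA3 were lower. ITGA5 (ENSG00000161638, chromosome 12, 54395261 to 54419266 of GRCh38, minus strand) binds fibronectin together with ITGB1. It stood at 262, 267 and 237 CPM in the control libraries and at 171, 152 and 161 CPM in the overexpressing ones. Every overexpressing library was well below every control library. The log2 fold change was -0.66 (SE 0.066, adjusted p = 0.000573), or -0.53 in the corrected fit, and over the 14 alternative fits the adjusted p was at most 0.0125. GPR84-AS1 on the opposite strand shares 48 exonic bases with ITGA5.

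ITGA7 (chromosome 12, 55684568 to 55716404, minus strand) is a laminin-binding subunit best known from muscle. It was at 4.68, 4.36 and 4.33 CPM in the control and at 2.79, 2.05 and 2.13 CPM in the overexpressing libraries, so the groups were apart. The log2 fold change was -0.94 (SE 0.149, adjusted p = 0.00358) and -0.78 after correction. Smooth muscle markers, with sums of 95.1 to 105 and 94.2 to 112 CPM that were mostly SMTN, overlapped between the groups. Their part in the ITGA7 value was not tested. BLOC1S1, whose exons on the opposite strand share 119 of ITGA7's exonic bases, had 20 to 32 counts in the control and 18 to 36 counts in the overexpressing libraries. METTL7B, also on the opposite strand with 44 shared exonic bases, had 297 to 339 counts in the control and 223 to 259 counts in the overexpressing libraries, and its part in the ITGA7 value was not tested.

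ITGA3, which binds laminin through ITGB1, was at 484, 507 and 452 CPM in the control and at 412, 381 and 412 CPM in the overexpressing libraries. No library crossed over, but the distance was small, with a log2 fold change of -0.26 (SE 0.063, adjusted p = 0.0196). It was -0.090 after correction (adjusted p = 0.114, with a range of 0.00254 to 0.114 over the alternatives). The call was also lost without control replicate 1 (0.0871), control replicate 2 (0.0973) or P4HA3 replicate 3 (0.0639).

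The promoter window of ITGA5 is printed as the fibronectin receptor subunit had the smallest adjusted p among the members, and that of LAMB2 as the laminin chain with the smallest. Both come from RefSeq (GRCh38.p14), in which 26 of the 38 genes matched an entry. Each runs 5′ to 3′ on the gene's own minus strand, from 250 bases before the start of transcription through the first 50 bases after it. Capitals mark matches on either strand to an AP-1 site (TGANTCA), a TEAD site (GGAATG), a GC box (GGGCGG, or CCGCCC read on the other strand) or a TATA box (TATAAA).
ITGA5, chr12:54419217-54419516: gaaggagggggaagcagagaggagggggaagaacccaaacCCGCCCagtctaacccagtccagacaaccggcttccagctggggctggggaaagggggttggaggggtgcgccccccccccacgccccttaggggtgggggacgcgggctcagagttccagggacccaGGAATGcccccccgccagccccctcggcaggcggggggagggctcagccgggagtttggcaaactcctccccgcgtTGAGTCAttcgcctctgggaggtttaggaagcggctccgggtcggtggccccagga
LAMB2, chr3:49133001-49133300: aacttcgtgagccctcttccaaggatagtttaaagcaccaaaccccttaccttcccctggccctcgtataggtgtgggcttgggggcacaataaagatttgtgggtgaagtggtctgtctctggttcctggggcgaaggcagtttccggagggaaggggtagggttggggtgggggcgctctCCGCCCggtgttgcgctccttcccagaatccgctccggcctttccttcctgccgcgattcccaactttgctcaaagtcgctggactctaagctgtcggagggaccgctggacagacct

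The ITGA5 window has a GC content of 69.3% and holds 1 match each to the AP-1 site (beginning at position -6 from the start), the TEAD site (-82) and the GC box (-210). The LAMB2 window has a GC content of 58.7% and holds 1 GC box (-68) and no match to the other motifs. None of the matches overlap. Of 35116 RefSeq promoter windows of that length, 7.71% hold the AP-1 letters, 14.0% the TEAD letters, 45.0% the GC box and 11.5% the TATA box. These matches describe letters only.

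ITGA2, ITGA11 and ITGA1 bind collagens together with ITGB1. ITGA2 was at 36.1, 33.6 and 37.3 CPM in the control and at 24.2, 33.0 and 29.6 CPM in the overexpressing libraries. The groups did not overlap, but P4HA3 replicate 2 lay close to the control. The log2 fold change of -0.30 had an adjusted p of 0.0648, and without P4HA3 replicate 2 the adjusted p was 0.00937. In the corrected fit it was -0.54 (adjusted p = 0.000173, range over the alternatives 0.000173 to 0.172). ITGA11 was at 9.97 ± 1.23 CPM in the control and 7.85 ± 1.03 CPM in the overexpressing cells, with a log2 fold change of -0.34 (adjusted p = 0.0805) and of -0.41 after correction (adjusted p = 0.0243). ITGA1 was at 6.61 to 7.40 CPM in the control and 6.05 to 7.07 CPM in the overexpressing libraries, with -0.10 (adjusted p = 0.509) and, after correction, -0.38 (adjusted p = 0.0181, range 0.0181 to 0.773). All 3 of these collagen-binding subunits were thus called lower in the corrected fit and not in the main one. ITGA2 was also called without the correction by DESeq2 (0.0423), with no filter on low counts (0.0105) and with a block for replicate number (0.0171). Over the 14 alternative fits, the corrected one included, ITGA2 was called in 5, ITGA11 in 3 and ITGA1 in 1. ITGA10, the other collagen-binding alpha subunit, was at 1.57 ± 0.451 and 1.87 ± 0.129 CPM and was called in neither fit. PELO on the same strand shares 499 of ITGA1's 18545 exonic bases. It had 1426, 1254 and 1328 counts in the control and 1324, 1228 and 1358 counts in the overexpressing libraries. Its part in the ITGA1 value was not tested.

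The remaining abundant alpha subunits did not pass the test in the main fit. ITGA6, a laminin-binding subunit, was at 130, 129 and 144 CPM in the control and at 142, 173 and 156 CPM in the overexpressing libraries, a log2 fold change of 0.22 (adjusted p = 0.0638) that was 0.057 after correction. Control replicate 3 overlapped P4HA3 replicate 1. ITGAV, the alpha subunit that pairs with ITGB3, ITGB5, ITGB6 and ITGB8, was at 74.1, 80.6 and 94.7 CPM against 87.6, 144 and 107 CPM. P4HA3 replicate 2 stood highest, and the log2 fold change of 0.44 (adjusted p = 0.0649) was 0.17 after correction. Without P4HA3 replicate 1 the adjusted p was 0.00707 for ITGA6 and 0.00264 for ITGAV. ITGA6 was also called higher by DESeq2 (0.0435), with no filter on low counts (0.00649) and with a block for replicate number (0.0263). Leaving out control replicate 3 also gave that call (0.0448). ITGAV was called higher with no filter (2.24e-08) and with the block (0.0014). ITGAE was at 48.9, 42.7 and 40.9 CPM in the control and at 44.7, 37.7 and 35.5 CPM in the overexpressing libraries. Its log2 fold change was -0.17 (adjusted p = 0.224) and -0.090 after correction, with an adjusted p of 0.0273 without P4HA3 replicate 1.

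Among beta subunits, ITGB3 and ITGB4 were lower. ITGB3 (chromosome 17, 47253827 to 47313743, plus strand) pairs with ITGAV to bind vitronectin and other ligands. It stood at 5.50, 4.88 and 4.99 CPM in the control and at 2.53, 2.27 and 2.44 CPM in the overexpressing libraries. No overexpressing library came near the control range. At -1.09 (SE 0.127, adjusted p = 0.00107), its log2 fold change was the most negative among the 28, and it was -1.11 after correction. Its transcript has a GC content of 49.7%. A read-through gene on the same strand, ENSG00000259753, shares 2266 of its 6829 exonic bases and was at 0 counts in each library. Markers of platelets, which carry ITGB3 in blood, summed to at most 0.047 CPM in any library. The endothelial marker sum, from PECAM1, moved with ITGB3, at 2.57 to 3.47 CPM in the control and 1.33 to 1.62 CPM in the overexpressing libraries, and its part in the ITGB3 value was not tested.

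ITGB4 (chromosome 17, 75721328 to 75757818, plus strand) joins ITGA6 in hemidesmosomes, the junctions that anchor epithelium to laminin. It was at 19.998, 22.2 and 19.7 CPM in the control and at 13.1, 12.3 and 14.3 CPM in the overexpressing libraries. The groups were again apart, with a log2 fold change of -0.64 (SE 0.092, adjusted p = 0.00251) and -0.44 after correction. Over the alternative fits the adjusted p was at most 0.0274.

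ITGB1 was at 481, 461 and 530 CPM in the control and at 530, 602 and 568 CPM in the overexpressing libraries. Control replicate 3 overlapped P4HA3 replicate 1, at a log2 fold change of 0.21 (adjusted p = 0.0616) and 0.015 after correction. Without control replicate 3 the adjusted p was 0.0367 and without P4HA3 replicate 1 it was 0.0123. DESeq2 (0.0333), the fit with no filter on low counts (0.0111) and the block for replicate number (0.0308) also called ITGB1 higher. ITGB5 was at 338, 337 and 326 CPM against 319, 286 and 305 CPM, which did not overlap, with a log2 fold change of -0.14 (adjusted p = 0.11, and 0.0332 without P4HA3 replicate 1) and of -0.064 after correction. ITGB8, another ITGAV partner, was at 25.01, 31.0 and 33.0 CPM against 23.8, 42.1 and 33.9 CPM. Its log2 fold change of 0.17 (adjusted p = 0.512) was -0.12 after correction, the opposite sign. Without P4HA3 replicate 1 it was called higher at an adjusted p of 0.0317. ITGB2 was at 17.3 ± 0.875 CPM in the control and 15.9 ± 0.224 CPM in the overexpressing cells (log2 fold change -0.13, adjusted p = 0.27), and the sign turned after correction, to 0.052.

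Laminin beta chains gave LAMB2 and LAMB3 as lower and LAMB1 as not called. LAMB2 (chromosome 3, 49121114 to 49133118, minus strand) replaces LAMB1 in many mature basement membranes. Its values were 333, 352 and 308 CPM in the control and 258, 234 and 264 CPM in the overexpressing libraries, and the groups did not overlap. The log2 fold change was -0.39 (SE 0.069, adjusted p = 0.00582) and -0.24 after correction, with an adjusted p of at most 0.0465 over the alternatives. LAMB1, its counterpart, was at 96.9, 96.0 and 103.7 CPM against 93.0, 111 and 105 CPM. The LAMB1 groups overlapped, with a log2 fold change of 0.057 (adjusted p = 0.581) and of 0.025 after correction. DLD on the opposite strand shares 300 of LAMB1's 18592 exonic bases. It had 1559, 1385 and 1734 counts in the control and 1854, 2328 and 1993 counts in the overexpressing libraries, and its part in the LAMB1 value was not tested.

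LAMB3 and LAMA3 are chains of the laminin of the epidermal anchoring complex. LAMB3 was at 189, 197 and 178 CPM in the control and at 160, 158 and 152 CPM in the overexpressing libraries. Its groups did not overlap, with a log2 fold change of -0.26 (SE 0.057, adjusted p = 0.0131), and of -0.10 after correction (adjusted p = 0.1, range over the alternatives 0.00251 to 0.1). That call was lost without control replicate 1 (0.0688), control replicate 2 (0.072) or P4HA3 replicate 3 (0.069). LAMA3 was at 9.81 ± 0.919 and 8.62 ± 0.326 CPM, a log2 fold change of -0.19 (adjusted p = 0.199) and of -0.24 after correction.

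LAMA5, the widespread alpha chain of adult epithelial basement membranes, was at 508, 565 and 499 CPM in the control and at 423, 456 and 460 CPM in the overexpressing libraries. Every overexpressing value was lower, with a log2 fold change of -0.23 (SE 0.066, adjusted p = 0.0345). It was -0.051 after correction (adjusted p = 0.373, range over the alternatives 0.00941 to 0.373), and the call was lost without control replicate 1 (0.0933), control replicate 2 (0.138) or P4HA3 replicate 3 (0.0894). ADRM1 on the opposite strand shares 244 of LAMA5's 14291 exonic bases. LAMA4, a chain of vessel and mesenchymal basement membranes, was at 12.5 ± 0.522 and 14.0 ± 1.15 CPM and was not called (log2 fold change 0.17, adjusted p = 0.207, and 0.036 after correction).

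Among gamma chains LAMC3 was lower and LAMC1 was not called. LAMC3 (chromosome 9, 131009174 to 131094473, plus strand) was at 40.3, 40.8 and 36.5 CPM in the control and at 28.4, 29.0 and 32.4 CPM in the overexpressing libraries. The groups did not overlap, with a log2 fold change of -0.39 (SE 0.079, adjusted p = 0.0108) and -0.23 after correction, and the call was lost without control replicate 1 (0.0591) or control replicate 2 (0.0702). LAMC1, the gamma chain of most laminins, was at 392, 402 and 416 CPM against 412, 471 and 442 CPM. Its control replicate 3 overlapped P4HA3 replicate 1, with a log2 fold change of 0.13 (adjusted p = 0.149, and 0.0306 without P4HA3 replicate 1) and of 0.063 after correction. On corrected values the LAMC1 groups did not overlap, at 410, 413 and 415 CPM against 423, 441 and 430 CPM, every overexpressing library being higher. It was not called in the corrected fit (adjusted p = 0.235).

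The genes called lower had a median transcript GC content of 60.3%, against 49.4% for the 19 tested genes that were not called. Across the 28 genes, Spearman's rho between GC content and log2 fold change was -0.62, beside -0.58 across all tested genes. These genes share the same 6 libraries, so the value is given as a description. ITGB3 lay furthest from that trend, with the most negative log2 fold change at a GC content of 49.7%. ITGA7, ITGA5, ITGB4, LAMB2 and LAMC3 also lay below the lower quartile of all tested genes in their bin of GC content. That quartile was -0.36 for ITGA7 and ITGB4 (log2 fold changes -0.94 and -0.64) and -0.31 for ITGA5 (-0.66). ITGA3, LAMB3 and LAMA5 lay within the quartiles of their bins. The called genes were picked out by their low values, so their place is a description. Of the genes not called, ITGA2 (-0.30, with a lower quartile of 0.025), ITGA11, ITGA1, LAMA2 and LAMA3 also lay below the lower quartile of their bins. ITGA10 (0.26, with an upper quartile of 0.057), ITGAV (0.44, 0.35) and LAMC1 (0.13, 0.12) lay above the upper quartile.

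Ratios of CPM per kb were taken within each library for 5 pairs of genes, chosen with these values known. LAMB2 and LAMB1 are alternative beta chains, while each other pair encodes subunits that join each other. ITGB4 over ITGA6, the hemidesmosome pair, was 0.152, 0.170 and 0.134 in the control and 0.0910, 0.0704 and 0.0902 in the overexpressing libraries. ITGA5 over ITGB1, the fibronectin receptor pair, was 0.479, 0.509 and 0.393 against 0.283, 0.222 and 0.249. ITGB3 over ITGAV was 0.0880, 0.0717 and 0.0624 against 0.0343, 0.0186 and 0.0270. In each of the 3 integrin pairs every overexpressing library was below every control library.

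For the laminins, LAMB2 over LAMB1 averaged 3.33 ± 0.355 in the control and 2.45 ± 0.331 in the overexpressing cells. LAMA5 over LAMC1 averaged 0.903 ± 0.0715 and 0.702 ± 0.0266. None of the 5 ratios overlapped between groups. Each numerator was called lower and each denominator was not, so the choice of pairs fixed the direction and the ratios are a description with no test. On corrected values the means were 0.134 and 0.0945 for ITGB4 over ITGA6, 0.409 and 0.280 for ITGA5 over ITGB1, 0.0681 and 0.0283 for ITGB3 over ITGAV, 3.12 and 2.60 for LAMB2 over LAMB1, and 0.827 and 0.764 for LAMA5 over LAMC1.

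Summed over the alpha subunits, the integrin level was 213 ± 7.03 CPM per kb in the control and 179 ± 0.937 in the overexpressing cells, without overlap of the libraries, and 206 and 183 on corrected values. The beta subunits summed to 220 ± 7.83 and 232 ± 6.72 CPM per kb, which overlapped, and the order of the means turned on corrected values, at 227 and 224. ITGA5 supplied 28.3% ± 0.892 of the alpha sum in the control and 21.1% ± 1.33 in the overexpressing cells, and 27.8% and 21.7% on corrected values. ITGA3 supplied 46.2% ± 1.15 and 45.8% ± 2.24, with overlap, against 44.9% and 47.6% without overlap on corrected values, the opposite order. ITGB1 supplied 59.5% ± 2.15 and 65.3% ± 2.28 of the beta sum, and 61.7% and 63.2% on corrected values. Laminin alpha chains summed to 48.7 ± 3.09 and 42.0 ± 1.94 CPM per kb and laminin beta chains to 122 ± 5.65 and 101 ± 1.30, both without overlap. On corrected values these were 45.9 and 44.3 for the alpha chains and 117 and 106 for the beta chains, again without overlap. The sum of the gamma chains is not reported here. Of their members, LAMC1 had a positive log2 fold change and LAMC3 a negative one, as given above.

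Genes that work with integrins and laminins were counted from 6 lists holding 66 genes, 62 of them tested. Of these, 10 were higher, 14 were lower and 38 were not called, where 9.36% of all genes were higher and 11.4% lower. In the corrected fit 15 were higher and 8 lower, where the shares of all genes were 9.23% and 9.32%, and of these partner genes 7 and 8 were called in the same direction in both fits. Among matrix ligands, 3 of 14 tested were higher and 3 lower. CCN1, a secreted matricellular ligand of ITGAV integrins, rose from 271 ± 1.99 to 467 ± 55.4 CPM (log2 fold change 0.78, adjusted p = 0.000573), and was 0.83 after correction. VTN, which encodes vitronectin, fell from 38.0 ± 1.81 to 25.6 ± 3.93 CPM (-0.57, adjusted p = 0.00726), or -0.37 corrected. CCN2, the relative of CCN1, rose by a log2 fold change of 0.40, 0.46 after correction, and the heparan sulfate proteoglycan AGRN was lower by -0.29, -0.067 after correction. CCN1 was called in all 6 fits without 1 library, VTN in 5 (lost without control replicate 2), and CCN2 and AGRN in 3.

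Of the 9 other laminin receptors and hemidesmosome genes 0 were higher and 2 were lower, where 9.36% of all genes were higher and 11.4% lower. BCAM, a receptor for LAMA5-containing laminins, fell from 188 ± 16.0 to 109.4 ± 8.14 CPM (-0.78, adjusted p = 0.000573), or -0.51 corrected. SDC1, a syndecan, was lower by -0.29, or -0.12 corrected. BCAM was called in all 6 fits without 1 library and SDC1 in 3. In the corrected fit 2 genes of this list were higher.

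Integrin activators and adaptors gave 6 higher and 3 lower of 25 tested, where 9.36% of all genes were higher and 11.4% lower. The corrected fit gave 9 higher and 2 lower, where these shares were 9.23% and 9.32%. FERMT2, a kindlin that activates integrins, rose from 199 ± 10.9 to 280 ± 30.4 CPM (0.49, adjusted p = 0.00397). TLN2, a talin, was higher by 0.38 and PARVA, which links integrin-linked kinase to actin, by 0.36. TNS1, a tensin of fibrillar adhesions, fell from 15.9 ± 0.687 to 9.93 ± 1.03 CPM (-0.68, adjusted p = 0.00274). These 4 were called in the corrected fit and in all 6 fits without 1 library, with corrected log2 fold changes of 0.33, 0.36, 0.20 and -0.62.

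Among the 4 integrin inactivators DOK1 (-0.32) and SHARPIN (-0.25) were lower, where 11.4% of all genes were lower. Neither was called after correction, at -0.11 and 0.032, where 1 other gene of this list was higher. Of 5 trafficking genes tested, SNX17, which recycles integrins, was lower (-0.32, or -0.19 corrected) and RAB21 was higher (0.23), the latter at -0.081 after correction. Of the 5 processing proteases 3 were lower, against 11.4% of all genes, namely MMP2 (-0.63), BMP1 (-0.25) and FURIN (-0.21). MMP2, a gelatinase, went from 17.4 ± 0.895 to 11.2 ± 0.263 CPM and was -0.52 after correction, while BMP1 and FURIN, at -0.077 and -0.020, were not called there. Without 1 library, MMP2 was called in all 6 fits, SHARPIN, SNX17 and BMP1 in 3, RAB21 and FURIN in 2 and DOK1 in 1. Each named partner gene called in 3 or fewer of these fits lost its call when control replicate 1, control replicate 2 or P4HA3 replicate 3 was the library left out, and RAB21, FURIN and DOK1 also without P4HA3 replicate 2. The medians of the 6 lists lay between -0.21 and 0.095.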

How the data were processed

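Poly-A selected, strand-marked libraries were sequenced in pairs by the authors on a DNBSEQ-T7. The authors deposited raw counts per Ensembl gene, made with HTSeq. The study's methods name STAR and GRCh38 with an Ensembl release that is older than GENCODE 44, used here for names, lengths and exons, and the submitters' processing notes name HISAT2. Tool versions and the strand setting are not given in the sources used here. GENCODE 44 matched 60463 of the 60664 gene IDs. Genes were filtered with filterByExpr (minimum count 10) and tested with edgeR 4.0.16 (quasi-likelihood, TMM factors of 0.979 to 1.02, R 4.3.3), with Benjamini-Hochberg adjustment over all 15130 genes. CPM used TMM library sizes. The corrected fit entered each library's smooth trend on GC content and log2 canonical transcript length (mgcv 1.9.3) as an offset. The 14 alternative fits were this one, DESeq2 1.42.0, limma-voom 3.58.1, 2 other normalizations, 2 other filters, a replicate block and 6 fits without 1 library. The scripts were tested on simulated counts. Members with an adjusted p under 0.05 or a mean of 20 CPM or more in either group are given by library, the rest by mean or range. From each list of partner genes, up to 4 called genes with the largest changes and a mean of at least 1 CPM are named. Members were taken by gene name, whatever their values. The members, lists, pairs and correction were all fixed with earlier results of these data known. All 6 libraries were used. The values of 1 member are not reported here, although it is in the counts over members.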

Additional observations from a re-analysis of the deposited data

How the results depend on the processing

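Over the 14 alternative fits, the 18 integrin and laminin genes given by library kept direction and side of the threshold in 213 of 252 values, passed the threshold newly in 22, lost it in 14 and reversed in 3. The reversals were ITGB8 (-0.12 with the GC content and length correction, -0.039 without P4HA3 replicate 2) and LAMB1 (-0.00235 without P4HA3 replicate 2). Without 1 library the log2 fold changes spanned -0.039 to 0.36 for ITGB8 and -0.00235 to 0.12 for LAMB1. Without 1 library, all-gene calls ranged from 534 (without control replicate 2) to 5530 (without P4HA3 replicate 1), beside 3147. They were 781 without control replicate 1 and 904 without P4HA3 replicate 3. With no filter on low counts they were 4485 of 27552 genes fitted, and with DESeq2 3017 of 27552, where the main fit tested 15130. The 5 integrin calls, of 17 tested, became 8 of 24 with DESeq2 (2 higher) and 10 of 24 with no filter (3 higher). They were 4 to 11 of 17 without 1 library, where 11 (4 higher) came without P4HA3 replicate 1. The 4 laminin calls became 2 with the correction and 1 to 5 without 1 library, at 1 without control replicate 1 or control replicate 2 and 2 without P4HA3 replicate 3. The 24 partner calls ranged from 8 to 32 without 1 library, at 8 without either of control replicates 1 and 2 and 9 without P4HA3 replicate 3. The P4HA3 log2 fold change stayed between 9.06 and 9.24 in those fits. Whether replicate numbers pair the samples is not known. Correlations of the deviations from the group means were 0.33, -0.084 and 0.021 for same-numbered libraries, and -0.41 to 0.38 for the others. These deviations also followed GC content, so the correlations cannot settle pairing. The replicate block gave 4313 calls over all genes, 10 integrins (3 higher), 4 laminins and 25 partner genes. Genes at 3 counts or fewer could not be assessed at this depth. The cause of these shifts was not tested.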
